A study of Mus musculus with 12 samples.

Results

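The genes of 10 secreted chemokines that attract neutrophils, monocytes and other myeloid cells were described across the 4 groups of the study, out of 55421 mouse genes in the count table. They were taken by gene symbol: Ccl2, Ccl7, Ccl20, Cxcl1, Cxcl2, Cxcl3, Cxcl5, Cxcl15, Cxcl12 and Cxcl14. Each symbol matched 1 row of the count table, and 8 of the 10 passed the low-count filter. Ccl7 and Cxcl15 did not pass it and were not tested. MOC2, a squamous cell carcinoma line from mouse oral epithelium, was the source of the RNA and was grown in vitro. The study asked how extracellular vesicles (EVs), membrane particles that cells shed, act in the signals sent by senescent tumour cells. One derivative, MOC2-25, was labelled EV-proficient, and the other, MOC2-27, was labelled EV-deficient, with vesicle release blocked genetically in a gene that the labels do not name. Cultures of each derivative received DMSO, the solvent control, or 600 nM paclitaxel for 48 h. Paclitaxel stabilises microtubules and served here to induce senescence. Each of the 4 groups held 3 libraries. As an EV label belongs to only 1 derivative, label and derivative cannot be told apart. Nothing in the labels says that replicates were separate cultures, so p-values measure the spread between these libraries, which may be technical.

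Chemokines are small secreted proteins that bind receptors on leukocytes and direct their migration. Cxcl1, Cxcl2, Cxcl3 and Cxcl5 act through the receptor Cxcr2 and draw neutrophils. Ccl2 and Ccl7 act through Ccr2 and draw monocytes, Ccl20 acts through Ccr6, and Cxcl12 acts through Cxcr4 and is scavenged by Ackr3. Many of these genes are transcribed through NF-kappaB, and several are known components of the secretory programme of senescent cells.

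Library totals ran from 23263472 to 62955757 counts, and a floor of 3 counts was worth 0.0492 to 0.121 CPM (counts scaled to library size). The floors cover counting error only. A pair of facts about the libraries precedes the results. Between EV labels, 4162 genes differed under DMSO and 6853 under paclitaxel. Of the 2834 genes that differed under both treatments, 112 (3.95%) kept the same sign, so most of these 2834 crossed with the drug. A row that the authors added under the name dngfr crossed likewise, with 8.99 ± 3.23 CPM (EV-proficient) and 2.15 ± 0.35 CPM (EV-deficient) under DMSO, and 3.24 ± 0.68 and 10.9 ± 1.4 CPM under paclitaxel (SD, n = 3 for every mean). Why they cross was not tested. The labels do not name the gene behind the EV label, so no value here checks it, and whether the labels of groups were exchanged was not tested. An exchange of EV labels within 1 treatment would change what the drug effect within a label, the interaction and the comparisons between labels mean, but not the drug effect averaged over both labels. An exchange of treatments within 1 derivative would change the average as well. All groups are named as labelled. The mitochondrial share of counts was 0.550% to 0.729% in the DMSO libraries, 0.846% to 0.907% in the EV-proficient and 1.07% to 1.45% in the EV-deficient paclitaxel libraries.

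The labelled cell type was checked against markers. Krt8, Krt18, Epcam and Cdh1 had group means of at least 407 CPM, while the basal squamous markers Krt5 (at most 8 counts in a library) and Trp63 (at most 11) were nearly absent. The basal keratin Krt14 was present, at 191 (EV-proficient) and 681 CPM (EV-deficient) under DMSO and at 191 and 80.04 CPM under paclitaxel, so it was lowest where most of the chemokines were highest. Its interaction term, the paclitaxel effect in the EV-deficient minus that in the EV-proficient libraries, was -3.09 ± 0.10 (SE, log2, edgeR adjusted p 3.95e-16). Of the other basal and squamous markers, Itga6 had group means of 536 to 706 CPM, Itgb4 of 196 to 367 CPM and Sfn of 53.5 to 328 CPM. Of the leukocyte markers, the 12 together summed under DMSO to 12.04 to 13.2 CPM (EV-proficient) and 23.5 to 24.3 CPM (EV-deficient), and under paclitaxel to 44.2 to 48.9 and 33.04 to 55.3 CPM. Cd68 and Csf1r made up most of this sum. The pan-leukocyte gene Ptprc was at 0.396 and 0.890 CPM under DMSO and 1.01 and 0.765 CPM under paclitaxel, and the macrophage genes Adgre1 and Lyz2 and the T-cell gene Cd3e never passed 4, 7 and 2 counts. Ly6g, a neutrophil surface gene, was at 3.64 and 1.55 CPM under DMSO and 3.01 and 6.26 CPM under paclitaxel, highest in the same group as most of the chemokines (interaction 2.28 ± 0.25 SE, log2), while the neutrophil genes S100a9 and S100a8 never passed 3 and 27 counts. Csf1r, a macrophage receptor, was at 0.944 and 12.4 CPM under DMSO and 11.6 and 5.34 CPM under paclitaxel, with an interaction of -4.85 ± 0.26 (edgeR adjusted p 2.28e-12). Of the 7 leukocyte markers tested, 1 had an interaction called higher and 2 lower, against 16.9% and 23.8% of all tested genes. The 8 fibroblast markers summed under DMSO to 1.68 to 2.58 and 2.84 to 3.60 CPM and under paclitaxel to 5.58 to 6.86 and 7.12 to 8.99 CPM, and the 6 endothelial markers stayed at or below 4.52 CPM in every library. The part of these markers in the chemokine levels was not tested. In bulk RNA, fewer cells expressing a gene and less RNA per cell cannot be told apart.

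The neutrophil chemokines form a cluster on chromosome 5 (build GRCm38, all on the + strand): Cxcl5 at chr5:90759360-90761624, Cxcl3 at chr5:90786103-90789600, Cxcl15 at chr5:90794534-90803067, Cxcl1 at chr5:90891241-90893115 and Cxcl2 at chr5:90903871-90905938. Ccl2 (chr11:82035571-82037453) and Ccl7 (chr11:82045712-82047525) are neighbours on the + strand of chromosome 11. Ccl20 (chr1:83116766-83119167, + strand), Cxcl12 (chr6:117168535-117181367, + strand) and Cxcl14 (chr13:56288643-56296551, - strand) stand apart. Gm17268, on the - strand, overlaps Ccl2, and it had 0 counts in every library. Cxcl1, Cxcl2 and Cxcl3 are close relatives in sequence, and how reads shared between such genes were counted is not given in the sources used here.

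The RefSeq promoter table (GRCm38.p6) held 7 of the 10 members: Ccl20, Cxcl1, Cxcl2, Cxcl3, Cxcl15, Cxcl12 and Cxcl14. The 300 bases from 250 before to 50 after each start were searched on both strands for 4 motifs. The kappaB-like motif, GGG and TTTCC set 2 bases apart, occurred in 4 of the 7 and in 1.63% of the 32851 mouse promoters. The carriers were Cxcl1 and Cxcl2 with 2 matches each and Cxcl3 and Ccl20 with 1 each. TATAAA occurred in Cxcl3 and Cxcl15 and in 13.6% of promoters. The interferon-response motif, a pair of GAAA set 2 bases apart, occurred in Cxcl14 and in 3.44% of promoters. The AP-1 letters TGANTCA were in 7.81% of promoters and in no window of the 7 members. No match overlapped another in a member. A match is only a description of the letters. The 130 bases before the start are shown for the 4 carriers of the kappaB-like motif, and for Cxcl12, which held no match of any motif, as a contrast. Capitals mark the kappaB-like motif or TATAAA, and matches on the reverse strand appear as their complement.
Cxcl1 (chr5:90891115-90891244, + strand): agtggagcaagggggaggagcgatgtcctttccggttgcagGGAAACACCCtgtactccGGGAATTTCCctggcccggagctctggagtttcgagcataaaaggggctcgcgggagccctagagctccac
Cxcl2 (chr5:90903769-90903898, + strand): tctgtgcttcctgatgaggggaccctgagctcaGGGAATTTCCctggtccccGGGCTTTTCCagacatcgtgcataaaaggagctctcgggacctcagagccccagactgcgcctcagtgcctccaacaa
Cxcl3 (chr5:90785971-90786100, + strand): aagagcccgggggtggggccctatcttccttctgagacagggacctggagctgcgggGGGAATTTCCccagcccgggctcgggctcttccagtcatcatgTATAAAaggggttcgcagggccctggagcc
Ccl20 (chr1:83116636-83116765, + strand): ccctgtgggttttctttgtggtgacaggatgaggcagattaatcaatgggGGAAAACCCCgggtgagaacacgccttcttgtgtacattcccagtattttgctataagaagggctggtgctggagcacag
Cxcl12 (chr6:117168405-117168534, + strand): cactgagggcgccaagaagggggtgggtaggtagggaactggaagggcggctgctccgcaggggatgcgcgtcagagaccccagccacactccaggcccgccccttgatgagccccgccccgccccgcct
In Cxcl3 the kappaB-like match lies from -73 to -64 and TATAAA from -30 to -25, counted from the start site. Cxcl1 has its matches from -89 to -80 (reverse strand) and from -71 to -62, and Cxcl2 from -97 to -88 and from -78 to -69. The same 10 letters, GGGAATTTCC, were found in Cxcl1, Cxcl2 and Cxcl3.

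Per kilobase of the longest coding transcript, Cxcl1 was the most abundant of the 10 in every group and Cxcl5 the next. Under DMSO, Cxcl1 held 77.8% (EV-proficient) and 83.9% (EV-deficient) of the summed level, and under paclitaxel 78.9% and 64.3%. Cxcl5 held 15.1% and 11.3% under DMSO and 16.4% and 26.9% under paclitaxel, in the same order of labels. Both genes together made up between 89.9% and 95.9% of the sum in every library. The sum under DMSO was 375 to 421 CPM per kb (EV-proficient) and 276 to 299 (EV-deficient), and under paclitaxel it was 271 to 292 and 534 to 654. The EV-deficient paclitaxel libraries were above all others, the EV-proficient DMSO libraries came next, and the remaining groups overlapped at this scaling.

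**Figure D1:**
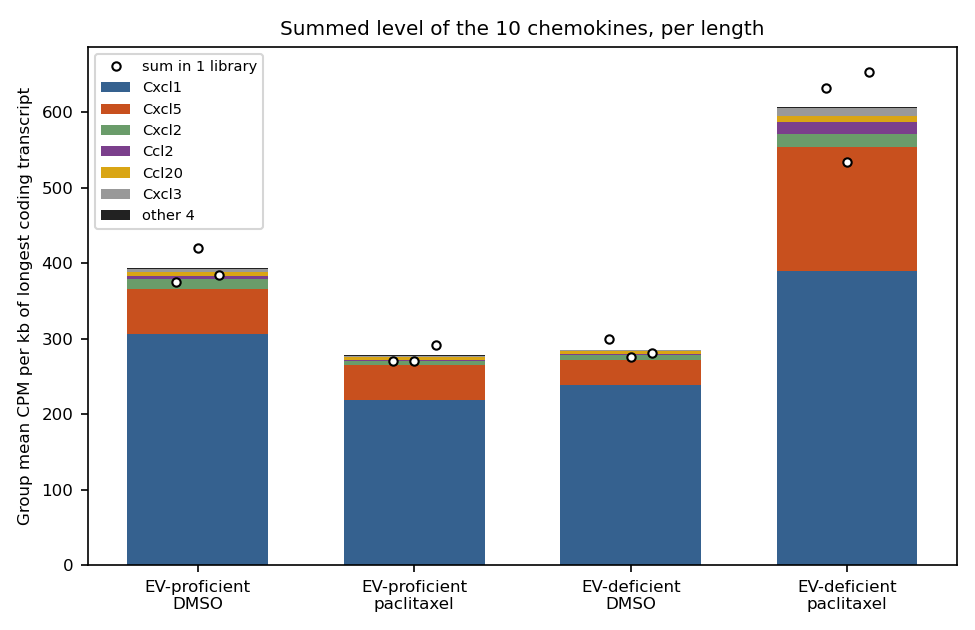
Summed level of the 10 chemokines in each group (bars, stacked by gene, linear axis in group mean CPM per kb of the longest coding transcript) and the sum in each library (open circles). The EV-deficient paclitaxel libraries sit between 534 and 654, above every library of the other groups, and the Cxcl5 segment is widest there.

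Across the 4 groups, 9 of the 10 genes had their highest mean in the EV-deficient paclitaxel libraries, and the exception was Cxcl14. Of the 18108 tested genes, which do not include Ccl7 and Cxcl15, 32% had their highest mean there. For Ccl2, Ccl20, Cxcl1, Cxcl2, Cxcl3 and Cxcl5 those 3 libraries lay above all 9 others, as they did for 10.7% of the tested genes. For Ccl7, Cxcl12, Cxcl15 and Cxcl14 they overlapped the nearest group. Within that group, replicate 2 was the lowest library for all 10 genes and replicate 3 the highest for 9 of the 10. Replicate 3 also had the lowest mitochondrial share of the group (1.07%).

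**Figure D2:**
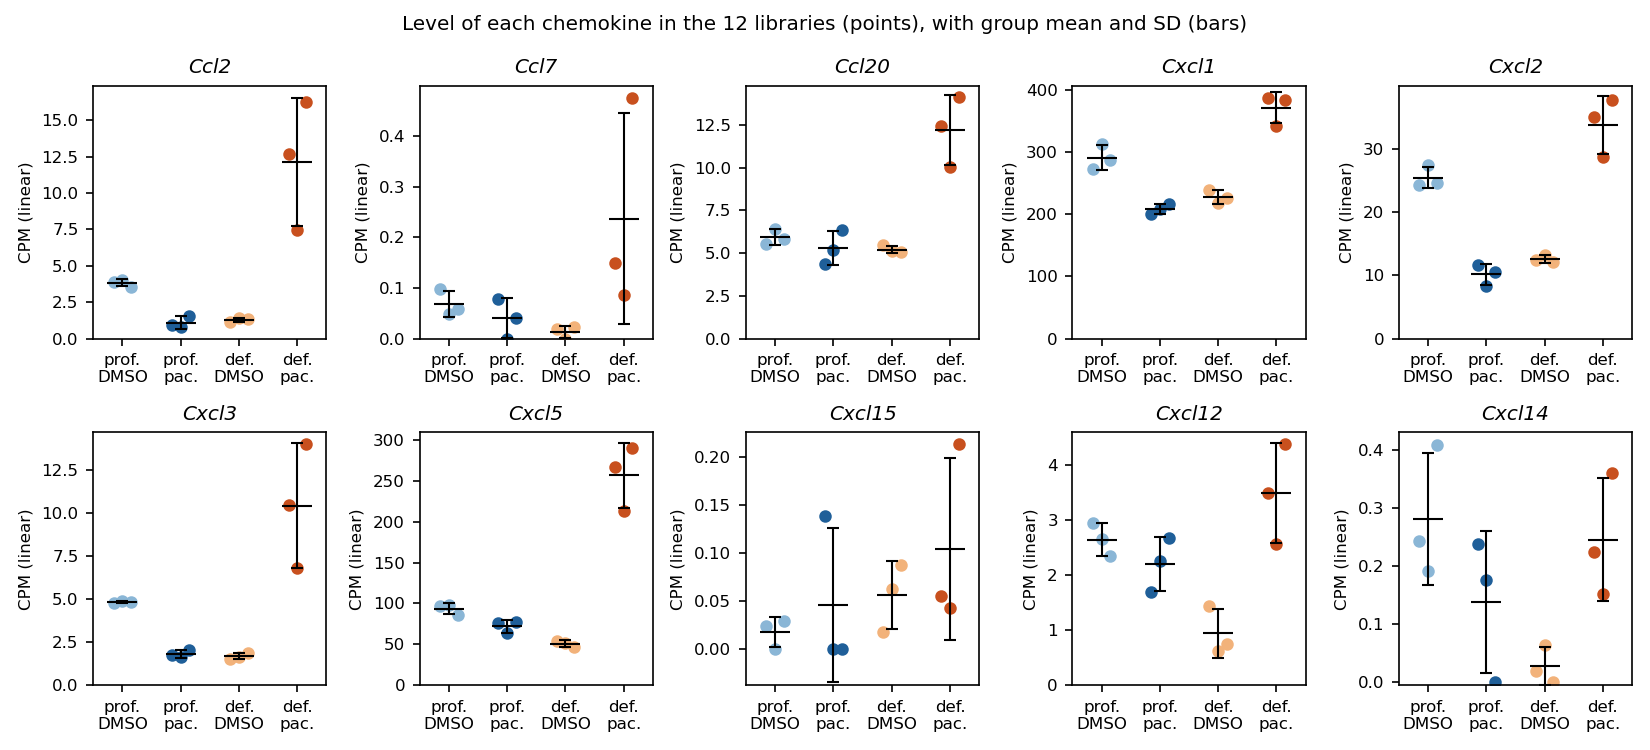
Level of each chemokine in the 12 libraries (points, linear CPM axis scaled per gene) with the mean and SD of each group of 3 (bars); prof. and def. stand for the libraries labelled EV-proficient and EV-deficient, pac. for paclitaxel. The EV-deficient paclitaxel mean is highest for 9 of the 10 genes, its 3 points lie above all others for 6 (Ccl2, Ccl20, Cxcl1, Cxcl2, Cxcl3 and Cxcl5), and for Ccl7, Cxcl15 and Cxcl14 every point is below 0.5 CPM.

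Levels are given in the order of replicates 1 to 3. Cxcl1, a Cxcr2 ligand and the most abundant of the 10 per kilobase, was at 273, 313 and 288 CPM under DMSO and at 200.4, 209 and 217 CPM under paclitaxel in the libraries labelled EV-proficient. In those labelled EV-deficient it was at 239, 218 and 226 CPM under DMSO and at 389, 343 and 385 CPM under paclitaxel. No group overlapped another, and the drug separated the libraries downwards under one label and upwards under the other. The narrow gap between EV-deficient DMSO and EV-proficient paclitaxel depended on scaling: on unscaled totals the means were 206 and 221 CPM, in the other order, and the libraries overlapped.

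Cxcl2, which shares its receptor with Cxcl1, was at 24.3, 27.4 and 24.7 CPM under DMSO and at 11.6, 8.28 and 10.6 CPM under paclitaxel in the libraries labelled EV-proficient. Where the label was EV-deficient, it was at 12.5, 13.2 and 12.04 CPM under DMSO and at 35.1, 28.7 and 37.7 CPM under paclitaxel. The groups did not overlap at this scaling. On unscaled totals, the EV-proficient paclitaxel libraries (12.3, 8.68 and 11.2 CPM) overlapped those of EV-deficient DMSO (11.1, 12.1 and 11.01 CPM). The scaled drug libraries were the lowest group under one label and the highest under the other.

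Cxcl3 was at 4.77, 4.88 and 4.86 CPM under DMSO and at 1.76, 1.63 and 2.06 CPM under paclitaxel in the libraries labelled EV-proficient. With the EV-deficient label it was at 1.52, 1.65 and 1.89 CPM under DMSO and at 10.5, 6.79 and 14.1 CPM under paclitaxel. Both low groups overlapped each other. The high EV-deficient paclitaxel group spread more than any other, with a coefficient of variation of 34.8% against 1.17% in EV-proficient DMSO.

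Cxcl5, an epithelial Cxcr2 ligand, was at 97.1, 98.1 and 85.5 CPM under DMSO and at 75.5, 63.2 and 76.9 CPM under paclitaxel in the libraries labelled EV-proficient. In those labelled EV-deficient it was at 53.9, 52.0 and 46.0 CPM under DMSO and at 267, 213 and 291 CPM under paclitaxel. No group overlapped another at this scaling. On unscaled totals, EV-proficient paclitaxel replicate 3 (81.7 CPM) lay above EV-proficient DMSO replicate 3 (80.3 CPM). Set against Cxcl1 in the same library, Cxcl5 under DMSO had 32.2% ± 3.1 (EV-proficient) and 22.2% ± 1.8 (EV-deficient) as many counts, and under paclitaxel 34.4% ± 3.8 and 68.9% ± 6.7 (SD, n = 3 for every mean). This ratio is free of library scaling. It ran from 62.2% to 75.6% in the last group and from 20.3% to 37.7% over the other 9 libraries, so the balance between these neutrophil ligands shifted towards Cxcl5 there.

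Cxcl15, a chemokine best known from lung epithelium, was at the limit of detection. Its highest count was 13, in EV-deficient paclitaxel replicate 3, and 3 of the 12 libraries had none. The 3 EV-proficient DMSO libraries held 2 counts in all and the EV-deficient paclitaxel libraries 18. Levels in the groups overlapped, and no difference was detectable at this depth.

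Ccl2, the main monocyte chemokine, was at 3.87, 4.04 and 3.57 CPM under DMSO and at 0.949, 0.773 and 1.58 CPM under paclitaxel in the libraries labelled EV-proficient. Where the label was EV-deficient, it was at 1.12, 1.40 and 1.32 CPM under DMSO and at 12.7, 7.46 and 16.3 CPM under paclitaxel. The EV-deficient paclitaxel libraries were highest, the EV-proficient DMSO libraries intermediate, and the other 6 libraries low and overlapping.

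Ccl7, its neighbour and a further Ccr2 ligand, had 4, 2 and 2 counts under DMSO and 4, 0 and 1 counts under paclitaxel in the libraries labelled EV-proficient. With the EV-deficient label it had 1, 0 and 1 counts under DMSO and 8, 4 and 29 counts under paclitaxel. Against a floor of 3 counts per library, the EV-deficient paclitaxel level was at least 3.91-fold higher than the EV-deficient DMSO level. Most of the Ccl7 counts came from 1 library, replicate 3 of the EV-deficient paclitaxel group, and without it the bound was 1.94-fold. When the low-count filter was left off, edgeR called Ccl7 in that comparison (adjusted p 0.00818) and for the difference of the drug effects (adjusted p 0.0451).

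Ccl20, the ligand of Ccr6, was at 5.53, 6.44 and 5.85 CPM under DMSO and at 4.37, 5.17 and 6.35 CPM under paclitaxel in the libraries labelled EV-proficient. In those labelled EV-deficient it was at 5.46, 5.11 and 5.07 CPM under DMSO and at 12.4, 10.0 and 14.2 CPM under paclitaxel. Only the EV-deficient paclitaxel libraries stood out. The EV-proficient paclitaxel libraries overlapped both DMSO groups.

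Cxcl12, which retains and attracts Cxcr4-bearing cells, was at 2.95, 2.66 and 2.34 CPM under DMSO and at 1.70, 2.25 and 2.67 CPM under paclitaxel in the libraries labelled EV-proficient. Where the label was EV-deficient, it was at 1.45, 0.626 and 0.746 CPM under DMSO and at 3.504, 2.57 and 4.40 CPM under paclitaxel. Here the EV-deficient DMSO libraries stood apart as low, and the other 3 groups overlapped in a chain. On unscaled totals the EV-deficient paclitaxel libraries (3.95, 2.91 and 5.03 CPM) lay above all others.

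Cxcl14, an epithelial chemokine, had 10, 8 and 14 counts under DMSO and 12, 10 and 0 counts under paclitaxel in the libraries labelled EV-proficient. With the EV-deficient label it had 1, 3 and 0 counts under DMSO and 12, 7 and 22 counts under paclitaxel. The means were 0.282 and 0.0268 CPM under DMSO and 0.138 and 0.245 CPM under paclitaxel, so the EV-deficient DMSO group was at the floor while the others overlapped. On unscaled totals the order of both highest groups was exchanged, with 0.261 CPM for EV-proficient DMSO and 0.279 CPM for EV-deficient paclitaxel. It passed the low-count filter through libraries of the groups other than EV-deficient DMSO.

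Paclitaxel was first compared with DMSO in the libraries labelled EV-proficient. Of the 8 tested members, 5 fell: Ccl2, Cxcl3, Cxcl2, Cxcl1 and Cxcl5. Of all 18108 tested genes, 31.1% were called higher and 27.1% lower (edgeR quasi-likelihood test, Benjamini-Hochberg adjusted p under 0.05). Ccl2 fell 3.69-fold (log2 fold change -1.88 ± 0.27 SE, adjusted p 3.61e-06, edgeR), Cxcl3 2.69-fold (-1.43 ± 0.22) and Cxcl2 2.52-fold (-1.33 ± 0.12). The abundant ligands moved less: Cxcl1 by -0.48 ± 0.07 and Cxcl5 by -0.38 ± 0.10 (SE, log2). Ccl20 (-0.18, 95% interval -0.51 to 0.14), Cxcl12 (-0.28, -0.86 to 0.30) and Cxcl14 (-0.87, -2.51 to 0.78) did not pass the threshold. The Cxcl14 value went to -1.43 without EV-proficient paclitaxel replicate 1, to -0.48 without replicate 3 of that group and to -0.53 without EV-proficient DMSO replicate 3. The median log2 fold change was -0.67 over the 8 members and 0.05 over all tested genes.

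In the libraries labelled EV-deficient, paclitaxel went with a rise of all 8 tested members. In the same comparison 32.4% of all tested genes were called higher and 30.5% lower. Ccl2 rose 9.52-fold (log2 fold change 3.25 ± 0.25 SE, adjusted p 3.1e-10, edgeR), Cxcl3 6.23-fold (2.64 ± 0.21), Cxcl5 5.08-fold (2.34 ± 0.10) and Cxcl12 3.68-fold (1.88 ± 0.29). Cxcl2 (1.43 ± 0.12), Ccl20 (1.23 ± 0.15) and Cxcl1 (0.71 ± 0.07) rose less. Cxcl14 was at least 4.05-fold higher, against a floor of 3 counts per library (edgeR adjusted p 0.00785). Its fitted value of 3.09 went to 4.32 without EV-deficient DMSO replicate 2, the library with 3 of that group's 4 counts. Without replicate 1 or 3 of that group it went to 2.84 and 2.57, close to the threshold (edgeR adjusted p 0.0473 and 0.0498). The median was 2.11 over the 8 members (1.95 with Cxcl14 at its bound) and 0.07 over all tested genes. All 8 calls were also made in each of the 12 fits that left out 1 library. With upper-quartile scaling, which moved the median of all genes by 0.18, the higher share of the called genes went from 51.5% to 63.4%, and the 8 calls stood.

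The average of both paclitaxel effects does not use the EV labels, since it sets all 6 drug libraries against all 6 DMSO libraries. Of the 8 tested members 6 were higher, against 37.1% of all tested genes called higher and 31.3% called lower. Cxcl5 was at 0.98 ± 0.07 (SE, log2, edgeR adjusted p 4.85e-11). Also called higher were Cxcl12 (0.80 ± 0.20), Ccl2 (0.68 ± 0.18), Cxcl3 (0.60 ± 0.15) and Ccl20 (0.52 ± 0.11). Cxcl2 was at 0.05 (95% interval -0.12 to 0.22) and Cxcl14 at 1.11 (-0.19 to 2.41), neither called. The Cxcl14 value ran from 0.82 to 1.72 over the leave-one-out fits and was highest without EV-deficient DMSO replicate 2, still not called (edgeR adjusted p 0.0657). The sign of the Cxcl2 average turned to -0.041 without EV-proficient paclitaxel replicate 1 and to -0.021 without EV-deficient paclitaxel replicate 3. Cxcl1 was called at 0.11 ± 0.05 (adjusted p 0.0362, edgeR), and this call was lost in 9 of the 12 fits that left out 1 library (0.07 to 0.10). It held without EV-proficient DMSO replicate 2, EV-deficient DMSO replicate 1 or EV-deficient paclitaxel replicate 2. Without the low-count filter it was lost too (0.108, adjusted p 0.0645). The Ccl2 call was lost with limma-voom (adjusted p 0.0597). The median was 0.64 over the 8 members, 0.56 with Cxcl14 at its bound, and 0.07 over all tested genes. With upper-quartile scaling the higher share of the called genes went from 54.2% to 63%, and 6 members were again called higher.

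**Figure D3:**
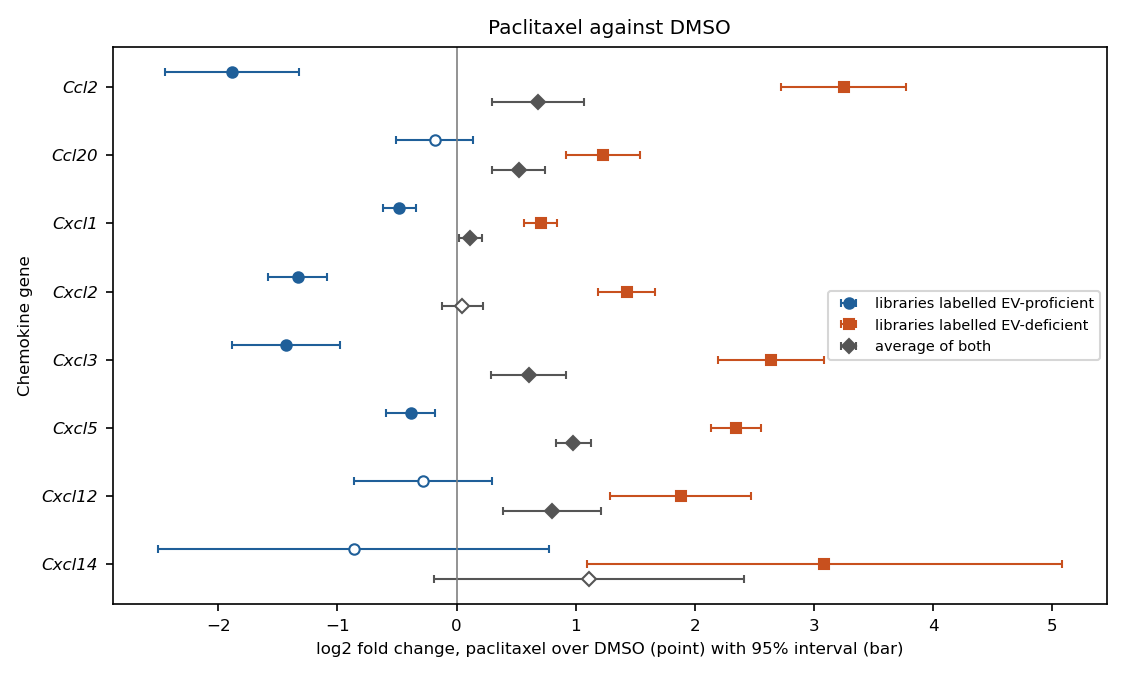
Log2 fold change of paclitaxel over DMSO for the 8 tested chemokines (points) with 95% intervals (bars), in the libraries labelled EV-proficient (circles), in those labelled EV-deficient (squares) and averaged (diamonds); open symbols did not pass the threshold. Every square lies right of 0 and every circle left of it, and the Cxcl14 square and diamond rest on EV-deficient DMSO libraries at the floor.

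The size of the drug effect differed between the EV labels for all 8 tested members. The difference was taken as the paclitaxel effect in the EV-deficient minus that in the EV-proficient libraries and was tested as the interaction term of the model. Over all tested genes this term was called higher for 16.9% and lower for 23.8%. It was largest for Ccl2 (5.14 ± 0.37 SE, log2, edgeR adjusted p 3.49e-10) and Cxcl3 (4.07 ± 0.30). Cxcl2 (2.76 ± 0.17), Cxcl5 (2.73 ± 0.14) and Cxcl12 (2.16 ± 0.40) lay in between, and Ccl20 (1.41 ± 0.21) and Cxcl1 (1.19 ± 0.09) were lowest. Cxcl14 had a fitted value of 3.95 ± 1.25 (adjusted p 0.0146, edgeR) that rests on a group at the floor. It lost its call without EV-proficient DMSO replicate 3 (3.60), EV-deficient DMSO replicate 1 (3.73) or EV-deficient DMSO replicate 3 (3.45), and it went to 5.21 without EV-deficient DMSO replicate 2. The median was 2.75 over the 8 members and -0.04 over all tested genes. With upper-quartile scaling, which moved that all-gene median by 0.12, the higher share of the called genes went from 41.4% to 53.9%, and the 8 calls stood.

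Between the EV labels, 5 of the 8 tested members (Ccl2, Cxcl1, Cxcl2, Cxcl3 and Cxcl5) were called under both treatments, lower under DMSO and higher under paclitaxel in the libraries labelled EV-deficient. Such a change of sign was common: over all 2834 doubly called genes, only 3.95% had 1 sign in both. Cxcl15, which was not tested, had its higher mean in the EV-deficient libraries under both treatments. Under DMSO, 7 of the 8 tested members were lower in the libraries labelled EV-deficient, against 10.6% of all tested genes called lower and 12.4% called higher. Ccl2 was 3.00-fold lower (log2 fold change -1.59 ± 0.26 SE, adjusted p 7.91e-05, edgeR), Cxcl3 2.88-fold (-1.53 ± 0.22), Cxcl12 2.79-fold (-1.48 ± 0.29) and Cxcl2 2.03-fold (-1.02 ± 0.12). Cxcl5 (-0.89 ± 0.10) and Cxcl1 (-0.35 ± 0.07) differed less, and Ccl20 (-0.19, 95% interval -0.51 to 0.13) did not pass the threshold. Cxcl14 was at least 4.65-fold lower, against the same floor (edgeR adjusted p 0.0176; fitted value -3.26). Its call was lost without EV-proficient DMSO replicate 3 (-2.90), EV-deficient DMSO replicate 1 (-3.03) or EV-deficient DMSO replicate 3 (-2.75), and its fitted value went to -4.50 without EV-deficient DMSO replicate 2. The median was -1.25 over the 8 members and 0.04 over all tested genes. Without the low-count filter the higher share of the called genes went from 53.9% to 64.1%. It was 47.1% with upper-quartile and 48.2% with median-of-ratios scaling.

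Under paclitaxel, 6 of the 8 tested members were higher in the libraries labelled EV-deficient, against 16% of all tested genes called higher and 21.8% called lower. Ccl2 was 11.7-fold higher, the widest gap of the 8, and Cxcl3 was 5.83-fold higher (log2 fold change 2.54 ± 0.22 SE, adjusted p 1.12e-08, edgeR). Cxcl5 (1.84 ± 0.10), Cxcl2 (1.74 ± 0.12), Ccl20 (1.22 ± 0.15) and Cxcl1 (0.83 ± 0.07) followed. Cxcl14 (0.69, 95% interval -0.92 to 2.31) did not pass, and its value went to 0.26 without EV-proficient paclitaxel replicate 3, to 0.31 without EV-deficient paclitaxel replicate 3 and to 1.21 without EV-proficient paclitaxel replicate 1. Cxcl12, at 0.68 ± 0.27, narrowly missed the threshold (edgeR adjusted p 0.053). It was called in 7 of 8 alternative analyses, with adjusted p from 0.0224 to 0.0641. Leaving out EV-deficient DMSO replicate 1 (0.67) or 2 (0.67), EV-proficient paclitaxel replicate 3 (0.81) or EV-deficient paclitaxel replicate 2 (0.87) also brought a call. The median was 1.48 over the 8 members and -0.00 over all tested genes. With upper-quartile scaling the higher share of the called genes went from 42.4% to 58.2%. The comparisons share libraries, so their values for one gene are not independent of each other.

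**Figure D4:**
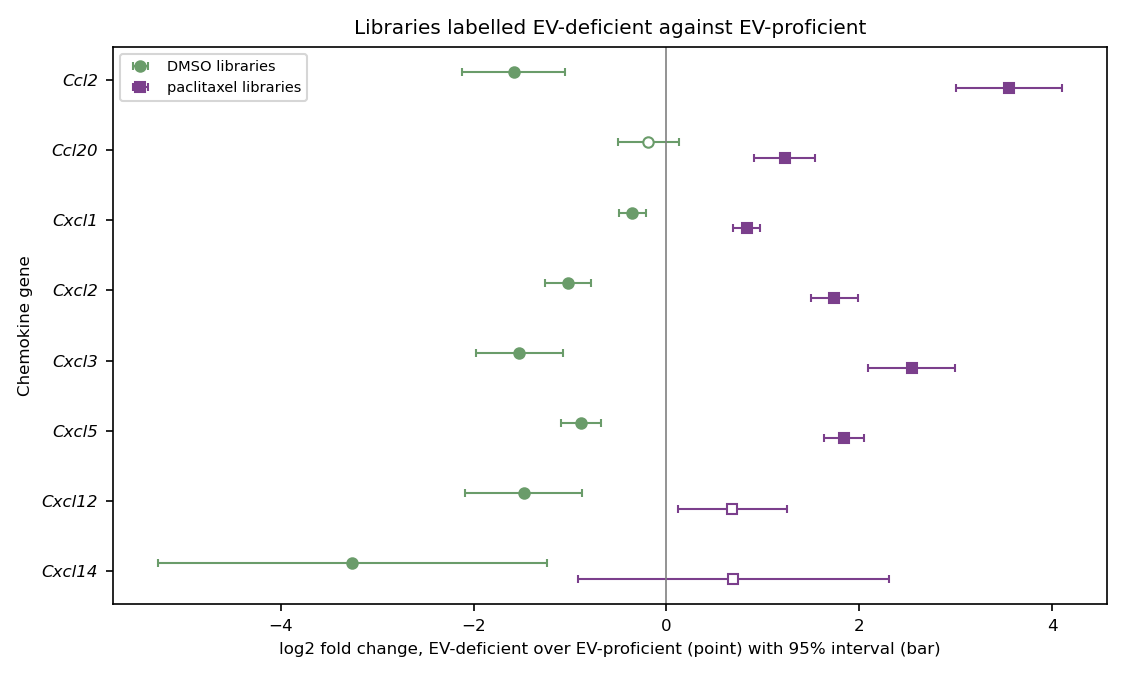
Log2 fold change of the libraries labelled EV-deficient over those labelled EV-proficient for the 8 tested chemokines (points) with 95% intervals (bars), under DMSO (circles) and under paclitaxel (squares); open symbols did not pass the threshold. All circles lie left of 0 and all squares right of it, with Ccl2 farthest right at 3.55.

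Counts in the gene lists that follow stand beside the shares over all tested genes, which were 31.1% higher and 27.1% lower for paclitaxel in the EV-proficient libraries, 32.4% and 30.5% in the EV-deficient libraries, and 16.9% and 23.8% for the interaction term. The receptors of these ligands were scarce in the cells. Of 14 chemokine receptors and scavengers, 4 passed the low-count filter. Under paclitaxel 3 were called higher in the EV-proficient libraries, and in the EV-deficient libraries 2 were called higher and 1 lower; the interaction term was called lower for 1. Cxcr2, the receptor of the neutrophil ligands, had group means of 0.00798 to 0.427 CPM, and Cxcr4, the receptor of Cxcl12, of 0.066 to 0.788 CPM. The exception was Ackr3, the scavenger of Cxcl12, with means under DMSO of 21.05 CPM (EV-proficient) and 55.0 CPM (EV-deficient) and under paclitaxel of 51.4 and 11.1 CPM. By group mean it was lowest where Cxcl12 was highest and highest where Cxcl12 was lowest, and its interaction term was -3.59 ± 0.12 (SE, log2, edgeR adjusted p 2.12e-15). In the EV-proficient libraries Ackr3 rose with paclitaxel (1.29 ± 0.09), while the change of Cxcl12 was not called (-0.28, 95% interval -0.86 to 0.30).

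Other chemokines, of the same chromosomal neighbourhoods or, like Cxcl10, outside them, were set beside the members. Of these 10 genes, 4 were tested; in both labels 2 were called higher and 1 lower under paclitaxel, and the interaction term was called higher for 1 and lower for 1. Ppbp, a Cxcr2 ligand known from platelets that lies between Cxcl5 and Cxcl3, had means of 188 and 244 CPM under DMSO and 129 and 118 CPM under paclitaxel, in that order of labels. It fell under paclitaxel in both labels, by 0.54 on the log2 scale in the EV-proficient and by 1.05 in the EV-deficient libraries (edgeR adjusted p 1.21e-05 and 6.22e-10). Cxcl10, a T-cell chemokine, rose under paclitaxel in both labels, from 6.67 to 19.8 CPM and from 5.50 to 58.3 CPM. Each moved in the same direction in both labels, and the difference from the members was not tested. Among 16 further chemokines, 11 were tested, with 5 higher and 1 lower in the EV-proficient and 8 higher in the EV-deficient libraries under paclitaxel. Their interaction term was called higher for 2 and lower for 2. Ccl9, a myeloid chemokine, fell in the first (-1.35 ± 0.39) and rose in the second (1.94 ± 0.35, SE, log2), and Cx3cl1 rose in both (2.00 ± 0.06 and 1.35 ± 0.06).

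Genes of the pathway that induces chemokines were measured as well. Of 15 NF-kappaB subunits and feedback genes, all tested, paclitaxel raised 7 and lowered 5 in the EV-proficient libraries and raised 7 and lowered 7 in the EV-deficient libraries. The interaction term was called higher for 2 and lower for 3. Nfkbia, an inhibitor that NF-kappaB itself induces, had the highest of these terms among those named (0.27 ± 0.09 SE, log2), and Rel, a subunit, the lowest (-0.51 ± 0.13). Of 14 upstream cytokines measured, 10 were tested, with 4 higher and 1 lower under paclitaxel in the EV-proficient libraries and 4 higher and 3 lower in the EV-deficient libraries. Il6 never passed 12 counts in a library, and Tnf had means of 0.272 to 0.441 CPM. The interaction term was called higher for 2 of the 10, Il33 (2.85 ± 0.50 SE, log2) and Csf1, and lower for 4, Csf2 (-1.02 ± 0.14), Csf3 (-0.57 ± 0.08), Il1a (-0.48 ± 0.17) and Lif (-0.31 ± 0.09). Csf1, the macrophage growth factor, had means of 78.9 and 40.9 CPM under DMSO and 43.0 and 121 CPM under paclitaxel and an interaction term of 2.44 ± 0.14. Il1a rose with the drug in both labels (1.24 ± 0.13 and 0.76 ± 0.12).

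Of the 7 factors that control decay of chemokine mRNA, 4 rose and 2 fell with paclitaxel in the EV-proficient libraries, and 4 rose and 3 fell in the EV-deficient libraries. The interaction term was called higher for 1 and lower for 4. Zfp36l1, which promotes decay of AU-rich transcripts, had the lowest term of these (-0.84 ± 0.12 SE, log2). Of 10 proteases and proteoglycans that process or anchor chemokines, paclitaxel raised 6 and lowered 1 in the EV-proficient and raised 4 and lowered 4 in the EV-deficient libraries, with the interaction term called higher for 1 and lower for 5. Mmp9, which cleaves Cxcr2 ligands, went from 2.60 to 10.2 CPM and from 1.42 to 13.9 CPM. The heparan sulfate proteoglycan Sdc1 went from 447 to 207 CPM in the EV-deficient libraries and from 380 to 377 CPM in the EV-proficient libraries, and its interaction term was -1.10 ± 0.08.

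As a description, the gene with the profile most like each tested member over the 12 libraries was found by Pearson correlation of log2 CPM, among 9884 or 9885 genes with a mean of at least 5 CPM. This minimum left out Ccl2, Cxcl3, Cxcl12 and Cxcl14 as candidates. Ccl2 and Cxcl3 themselves correlated at 0.99. The libraries fall into 4 groups, and all these correlations share those group means. Cxcl3 was most like Csf1 (r = 0.99), and Ccl2 most like Fndc3c1 (0.98). Cxcl1 was most like Syt11, Cxcl2 most like Ptprd and Cxcl5 most like Clca3b, each at 0.98. Ccl20 was most like Serpinb9b (0.96), Cxcl12 most like Slc6a15 (0.95) and Cxcl14 most like Zfp991 (0.91). Clca3b followed Cxcl5 in its levels, with 32.0 and 12.9 CPM under DMSO and 28.9 and 113 CPM under paclitaxel.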

How the data were processed

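Polyadenylated RNA of 12 libraries was sequenced. The kit marks strand, per the labels' protocols. What the authors deposited is a single table of raw counts for each gene. The submitters' processing notes name STAR 2.5.0a and GRCm38, and the counting program, the annotation release and the use of strand in counting are not given in the sources used here. Columns were matched to samples by the sample description. The 2 rows that the authors added (gfp, at 0 throughout, and dngfr) stayed out of library sizes and tests. The table held 0 columns of other samples. Replicates of a group differed by more than sampling noise (chi-square per degree of freedom 4.20 to 27.8).

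Counts were tested in R 4.3.3 with edgeR 4.0.16: filterByExpr (minimum count 10) kept 18108 of 35104 genes that had a count, TMM scaling gave factors of 0.890 to 1.15, and 1 quasi-likelihood model with 4 group means was fitted to all 12 libraries (common dispersion 0.00956). P-values were adjusted by Benjamini-Hochberg over all tested genes, with a threshold of 0.05. Standard errors come from the fold change and its F statistic, and intervals are at 95%. Groups with 3 counts or fewer in every library count as at the floor. The script was run on simulated counts with few changed genes in 1 group, a setting unlike these data, where many genes were called. Levels between genes were compared per kilobase of the longest coding transcript of GENCODE M21 (GRCm38).

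The members and gene lists were chosen with earlier results of these data known. All 10 members are named. From other lists at most 3 genes per comparison were taken, by size of change among those called with at least 1 CPM. The interaction term of the upstream cytokines was an exception, where all genes called were named. Marker genes, and receptors and cytokines at low levels, were named after their values were seen. Likeness used log2 CPM (prior count 2) and genes of at least 5 CPM. Alternatives tried were DESeq2 1.42.0, limma-voom (limma 3.58.1), upper-quartile or median-of-ratios scaling, a filter of 1 CPM in 3 libraries or none, a replicate block, fits of only the compared groups, CPM on unscaled totals, and leaving out each library.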

Additional observations from a re-analysis of the deposited data

Results flagged for a closer look

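The drug effect differed between the EV labels, by the interaction test, for each of the 8 tested chemokines, against 16.9% of all tested genes called higher and 23.8% called lower. The difference of the log2 fold changes (EV-deficient minus EV-proficient) was 5.14 for Ccl2, 1.41 for Ccl20, 1.19 for Cxcl1, 2.76 for Cxcl2, 4.07 for Cxcl3, 2.73 for Cxcl5, 2.16 for Cxcl12 and 3.95 for Cxcl14. The value of Cxcl14 rests on a group with at most 3 counts in a library, and its call was lost in 3 of the 12 fits that left out 1 library (edgeR adjusted p 0.0526, 0.0543 and 0.0542).

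The dngfr row, which is outside the gene tests, was at 10.9 CPM in the EV-deficient paclitaxel libraries, above 2.15 CPM in their DMSO controls. Its group means had the same order as those of Ccl7, Ccl20, Cxcl3, Cxcl5 and Cxcl12, with the highest in the EV-deficient paclitaxel and the next in the EV-proficient DMSO libraries. These 2 groups overlapped for dngfr, at 9.63 to 12.4 and 5.72 to 12.2 CPM. Its relation to the chemokine levels was not tested.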

How the results depend on the processing

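Over all alternatives, 905 member values kept their direction and their side of the threshold, 17 lost a call, 11 gained one and 2 changed sign. These values, and the counts of members called below, cover only the 8 members tested in the main fit. They leave out the Ccl7 calls made without the low-count filter, for paclitaxel in the EV-deficient libraries and for the interaction (edgeR adjusted p 0.00818 and 0.0451). Both sign changes were of the averaged Cxcl2 effect, which was not called: -0.041 and -0.021 against 0.048, with a range of -0.041 to 0.087 over the leave-one-out fits. The counts of members called ranged from 7 to 8 for paclitaxel in the EV-deficient libraries and for the interaction, where the filter of 1 CPM in 3 libraries left Cxcl14 untested. The former was also 7 in the fit of only the groups compared, and the latter in the 3 leave-one-out fits in which Cxcl14 lost its call. The counts varied by at most 1 elsewhere. No count of all genes called moved by 1.5 times in any alternative. The replicate block gave the main member counts in all 6 comparisons, and 10520, 11363, 12341, 4258, 6858 and 7386 genes against 10538, 11396, 12388, 4162, 6853 and 7370. Deviations of same-numbered libraries correlated at no more than 0.097, not every library correlated best with its own number, and the numbers were not taken as pairing. On unscaled totals 12 of 40 group levels moved by more than 1 SD. DESeq2 gave no adjusted p for Cxcl14 between EV labels under DMSO. Depth limits Ccl7, Cxcl15 and Cxcl14, whose floors of 0.0492 to 0.121 CPM are close to their levels.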
